A study of Saccharomyces cerevisiae with 4 samples.

Results

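The genes described here are 46 genes of DNA replication and sister chromatid cohesion of budding yeast (Saccharomyces cerevisiae), chosen by name among the 6459 rows of the count table. They fall into 7 roles: origin recognition with CDC6 (7 genes), the MCM2-7 helicase (6 genes), origin firing (4 genes), replicative polymerases (9 genes), the sliding clamp and its loaders (7 genes), single-strand binding protein, ligase and CTF4 (5 genes), and cohesin with its loader and regulators (8 genes). All 46 had reads in every library, with at least 288 estimated counts each, and all 46 passed the filter on low counts. RNA was sequenced from the strain ESS1-AID of the BY4741 background (genotype HIS3::ADH1-OsTIR19Myc and ESS1AID 71-114-6Flag::hphB), grown in YPD at 30 °C. Ess1, a prolyl isomerase that works on the tail of RNA polymerase II, is fused in this strain to an auxin-inducible degron. With auxin, the plant receptor OsTIR1, which the genotype names beside HIS3, marks such a fusion for destruction. Mid-log cultures received 2 mM of the auxin IAA for 3 h (2 libraries) or DMSO, the solvent control, for 3 h (2 libraries). Both groups carried the degron and the receptor, so loss of Ess1 and other effects of IAA cannot be told apart.

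Replication starts when the origin recognition complex (ORC) and Cdc6 load the Mcm2-7 helicase on DNA in G1, a step called licensing. In S phase the kinase Cdc7 with its activator Dbf4 and the factors Cdc45 and Mcm10 turn the loaded helicase on, and polymerases, the clamp PCNA, its loader RFC and the single-strand binding protein RPA copy the DNA. Cohesin, a ring of Smc1, Smc3, the kleisin Mcd1 and Irr1, is loaded by Scc2 and Scc4 and ties the new sister chromatids together once Eco1 has acetylated Smc3. In budding yeast many of these genes are transcribed in late G1 by the factor MBF, which binds the MluI cell cycle box (MCB, ACGCGT), and the MCM genes and CDC6 are transcribed around the end of mitosis under Mcm1 at early cell cycle boxes. The series concerns Ess1 and telomere replication, and the comparison asks how transcripts of the replication and cohesion machinery differ after IAA.

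Part of these genes share short upstream motifs. ACGCGT was searched in the 250 bases before each coding start. It is its own reverse complement, so both strands are covered. It was present for 22 of the 46 genes (47.8%), against 174 of 6001 nuclear coding genes (2.90%). It was found for 8 of 9 polymerase genes, for 4 of 5 genes of RPA, ligase and CTF4, for 5 of 8 cohesin genes, for 2 of 4 firing genes and for 2 of 7 clamp and loader genes. Only 1 of 7 origin recognition genes (CDC6) and 0 of 6 MCM genes had it. The motif CGCGAAA, the core bound by the related factor SBF, was searched on both strands and was present for 7 of the 46 (15.2%), against 3.35% of all windows. The windows of the 6 genes with ACGCGT and the lowest p-values are shown because they belong to the transcripts that differ most between treatments, and MCM5 is shown as the MCM gene with the lowest p-value. Each runs 5′ to 3′ toward the coding start, in the genome build R64, and capitals mark matches to ACGCGT and to CGCGAAA on either strand and, in MCM5, to a further motif given below.
DBF4 (chrIV:560626-560875, minus strand): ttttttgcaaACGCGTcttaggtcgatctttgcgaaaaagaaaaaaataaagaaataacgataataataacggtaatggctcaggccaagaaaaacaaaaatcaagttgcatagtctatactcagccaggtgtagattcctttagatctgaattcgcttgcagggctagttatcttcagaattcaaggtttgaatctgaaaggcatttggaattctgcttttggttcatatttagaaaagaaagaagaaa
SMC1 (chrVI:119179-119428, plus strand): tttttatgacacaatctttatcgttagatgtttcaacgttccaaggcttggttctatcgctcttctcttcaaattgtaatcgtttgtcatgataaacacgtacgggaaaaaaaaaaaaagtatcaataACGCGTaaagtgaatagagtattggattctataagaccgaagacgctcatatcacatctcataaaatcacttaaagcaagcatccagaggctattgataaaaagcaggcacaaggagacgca
PDS5 (chrXIII:420030-420279, minus strand): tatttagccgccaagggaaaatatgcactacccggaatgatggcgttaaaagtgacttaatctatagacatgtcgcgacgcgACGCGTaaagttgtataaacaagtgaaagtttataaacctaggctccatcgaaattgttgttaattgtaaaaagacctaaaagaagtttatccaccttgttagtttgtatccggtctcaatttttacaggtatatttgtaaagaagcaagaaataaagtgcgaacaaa
SMC3 (chrX:302850-303099, minus strand): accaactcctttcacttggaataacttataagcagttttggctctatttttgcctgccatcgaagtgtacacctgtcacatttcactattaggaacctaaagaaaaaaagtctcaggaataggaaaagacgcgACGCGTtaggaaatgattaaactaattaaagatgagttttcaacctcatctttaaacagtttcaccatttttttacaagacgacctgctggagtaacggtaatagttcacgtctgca
POL32 (chrX:517514-517763, minus strand): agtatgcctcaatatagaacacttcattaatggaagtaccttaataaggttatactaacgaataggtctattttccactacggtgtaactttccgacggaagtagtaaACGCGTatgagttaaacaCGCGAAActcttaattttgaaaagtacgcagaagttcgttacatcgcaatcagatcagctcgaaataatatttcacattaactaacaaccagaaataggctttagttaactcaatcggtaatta
CDC45 (chrXII:345942-346191, minus strand): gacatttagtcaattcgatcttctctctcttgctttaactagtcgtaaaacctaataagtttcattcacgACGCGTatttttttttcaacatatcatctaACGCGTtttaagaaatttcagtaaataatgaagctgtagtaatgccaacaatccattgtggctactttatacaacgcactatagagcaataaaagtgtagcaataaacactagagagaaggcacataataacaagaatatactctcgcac
MCM5 (chrXII:691305-691554, plus strand): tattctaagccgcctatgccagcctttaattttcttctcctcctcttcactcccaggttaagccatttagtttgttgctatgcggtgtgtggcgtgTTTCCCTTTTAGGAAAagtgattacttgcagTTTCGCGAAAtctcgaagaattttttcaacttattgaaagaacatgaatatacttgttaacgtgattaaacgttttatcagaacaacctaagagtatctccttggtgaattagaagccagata
CDC45 has ACGCGT at 2 places, which begin at positions -180 and -150 from the coding start. In MCM5 the 2 matches to CGCGAAA lie on opposite strands and overlap, so they read as TTTCGCGAAA. POL32 holds ACGCGT at -142 and also CGCGAAA at -124, with no overlap. The windows run into the coding sequence of an annotated neighbour for 4 of the 46 genes (ORC5, POL12, PRI1 and RFC2).

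The MCM5 window also holds a match to the early cell cycle box. Written as TTNCCCNNNNNGGAAA and searched on both strands, this pattern, which was chosen after the MCM5 window was seen, lies in 15 of the 6001 windows (0.25%). Of those, 4 belong to the genes described here, and all 4 are licensing genes. They are printed to show how alike they are, and MCM3 carries its match on the opposite strand.
CDC6 (chrX:69161-69176): TTACCCACTTAGGAAA
MCM3 (chrV:86752-86767): TTACCCATTTAGGAAA
MCM5 (chrXII:691401-691416): TTTCCCTTTTAGGAAA
MCM7 (chrII:625543-625558): TTACCCAGAAAGGAAA
Among the 15 genes are also STE2 and MFA1, which Mcm1 controls in cells of mating type a. Of the 14 tested genes with this pattern, 4 were higher and 2 lower in IAA, with a median log2 fold change of 0.0019. Among all tested genes 28.7% were higher and 29.6% lower, so the number of higher calls lies near that share. A match in a window is a description of its letters and does not show that a factor was bound in these cultures.

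RNA levels of the 46 genes were shifted modestly, more often down than up. At an adjusted p under 0.05 (edgeR quasi-likelihood test over 5799 genes, Benjamini-Hochberg), 21 of the 46 were lower in IAA (45.7%), against 29.6% of all tested genes, and 4 were higher (8.70%), against 28.7%. RNA of a culture reflects the RNA per cell and how many cells are in each cell cycle phase, and these cannot be told apart here. The share called in either direction, 25 of 46 or 54.3%, was close to that of all tested genes (58.3%). The median log2 fold change of the 46 was -0.12, against -0.0036 for all tested genes, and it was -0.069 without IAA replicate 2. In 26 genes both IAA libraries lay under both DMSO libraries (56.5%), against 41.3% of all tested genes. In either direction the groups did not overlap for 35 of the 46, and for 4724 of the 5799 tested genes. Falls of at least 1.2-fold were called for 10 genes (21.7%), against 17.6% of all tested genes. The same 10 were called lower under each of the 16 alternative settings that were run on single genes: ORC1, DBF4, CDC45, MCM10, POL32, RFC3, MCD1, SMC1, SMC3 and PDS5. The settings include the 1.2-fold threshold itself, so by construction no other gene could be called lower under all 16. The upstream windows of 6 of these 10 hold ACGCGT, near the share among all 46 (22 genes, 47.8%). Without DMSO replicate 1, 13 genes were called lower and 0 higher, and without DMSO replicate 2, 14 and 1. The few rises depended on the scaling. With library size scaling, which moves the median of all genes by -0.10, 27 of the 46 were lower and 0 higher (0 higher also at an unadjusted p under 0.05), and the 6 genes added to the lower calls were ORC6, MCM6, RFC5, RFA3, CDC9 and ECO1. DESeq2 called 16 lower and 1 higher.

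**Figure D1:**
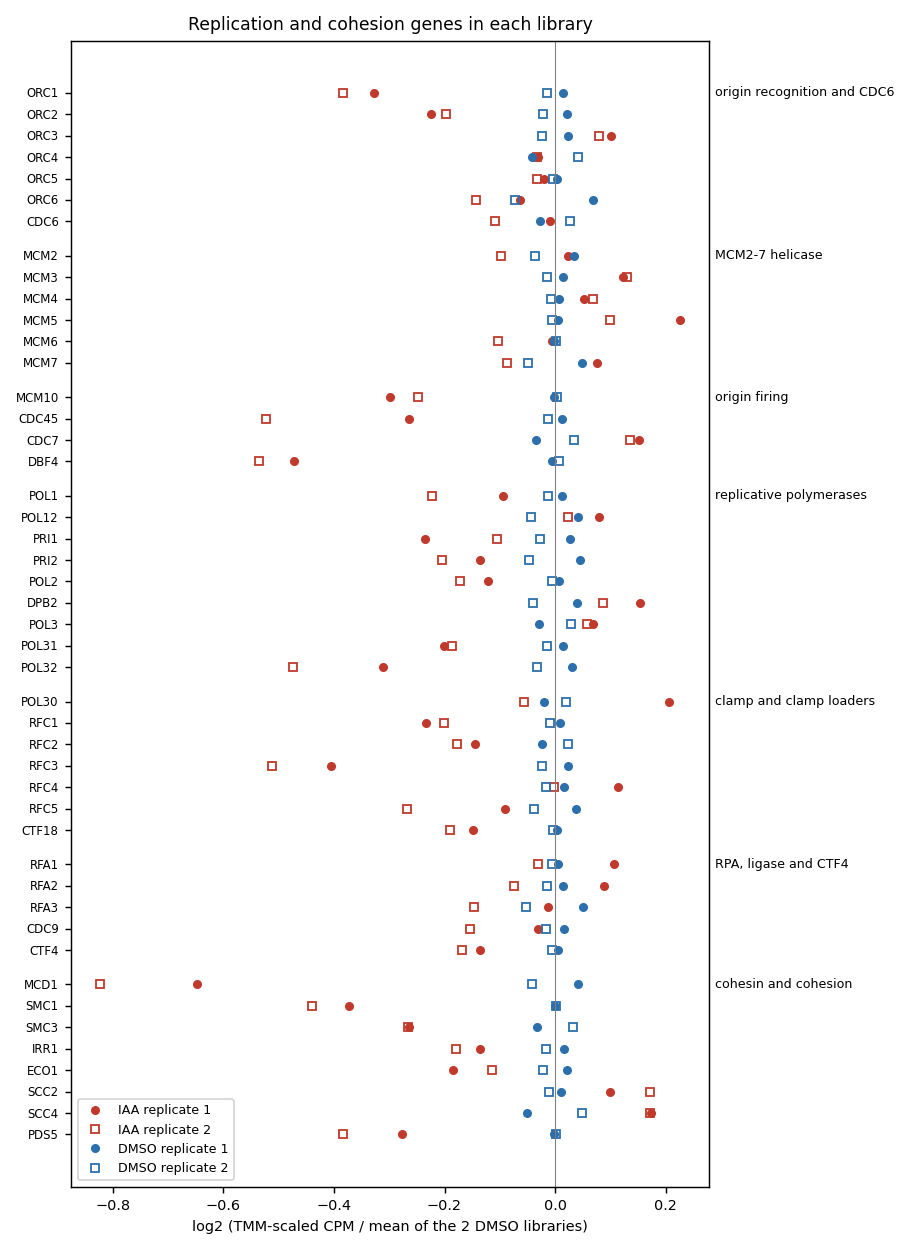
Each row is a gene and each point a library, placed by log2 of its TMM-scaled CPM over the mean of the 2 DMSO libraries, with IAA in red and DMSO in blue. MCD1, DBF4, RFC3, SMC1, POL32 and CDC45 have both IAA points well left of both DMSO points, while the MCM genes stay close to the line at 0.

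Libraries held 33589128 and 33625232 estimated counts in IAA and 26046702 and 27609311 in DMSO. The 46 genes took 0.381% and 0.369% of these counts in IAA, against 0.445% and 0.439% in DMSO. Levels in a library are given as TMM-scaled CPM, a gene's count relative to the library total after a correction for composition, and levels between genes as the deposited FPKM, which also divides by a gene length. That length is shorter than the coding length, above all for short genes: FPKM was 2.47 times the CPM per kb of coding length for RFA3, but 1.04 times for POL2, so FPKM sets short genes high against long ones. FPKM also sets IAA lower against DMSO than TMM-scaled CPM does. The median log2 fold change of all tested genes was -0.085 on log2(FPKM + 1), against -0.0036 with TMM. Ratios within a library are free of this shift. Markers of cell cycle phases were read beside the results, and their calls stand against 29.6% lower and 28.7% higher among all tested genes. Of 6 M/G1 genes 5 were lower (83.3%) and 0 higher (0 also at an unadjusted p under 0.05), with a median log2 fold change of -0.35. Their summed level was 2434 and 2689 CPM in IAA, against 3303 and 3255 CPM in DMSO. EGT2, a cell wall gene, was 1.45-fold and SIC1, an inhibitor of the S phase kinase, 1.34-fold lower. Of 8 G2/M genes 3 were lower (37.5%, near the share of all tested genes) and 1 higher (12.5%), with a median of -0.14. Their sum was 766 and 680 CPM in IAA, against 785 and 810 CPM in DMSO. BUD4, for bud site selection, and SWI5, a transcription factor of late mitosis, were each 1.21-fold lower. The G2/M gene called higher was CDC20, at 1.24-fold. Of 8 histone genes 5 were higher (62.5%) and 2 lower (25%), with a median of 0.38. Their sum was 1902 and 1932 CPM in IAA, against 1583 and 1619 CPM in DMSO. HTA1, for histone H2A, was 1.81-fold and HHT1, for histone H3, whose reads are shared with its copy, 1.94-fold higher. No phase marker was at 0, and the part of phase in the results below was not tested. Part of the strain markers matched BY4741 of mating type a. LEU2, URA3 and MET17 had 0 counts in all 4 libraries, and the receptor gene STE2 had 381 and 363 CPM in IAA and 395 and 361 CPM in DMSO. STE3, the receptor of the other mating type, had at most 6.12 CPM. BAR1, another marker of mating type a, had 155 and 145 CPM in IAA and 111 and 103 CPM in DMSO. It was called 1.40-fold higher (edgeR adjusted p = 0.000179). The pheromone genes MFA1 and MFA2, also markers of mating type a, were under 1 CPM in every library and so did not match.

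Among origin recognition genes, ORC1 and ORC2 fell, and the others did not pass the test. These 2 of 7 (28.6%) lay near the 29.6% of all tested genes that were lower, and 0 were higher, against 28.7%. ORC1, the largest ORC subunit and an ATPase (chromosome XIII, 142210 to 144954), had 92.6 and 89.0 CPM in IAA, against 117 and 115 CPM in DMSO. That is 1.28-fold lower, at -0.36 on the log2 scale (SE 0.0457, edgeR adjusted p = 0.000335). ORC2 (chromosome II, 360652 to 362514) had 79.3 and 80.8 CPM in IAA, against 94.1 and 91.3 CPM in DMSO, or 1.16-fold lower (edgeR adjusted p = 0.00439). For both genes the IAA libraries lay under the DMSO libraries, as they did for 41.3% of all tested genes. ORC3 had 38.2 and 37.7 CPM in IAA and 36.2 and 35.05 CPM in DMSO, and ORC6, which binds the helicase loading factor Cdt1, had 34.1 and 32.3 CPM in IAA and 37.3 and 33.9 CPM in DMSO. Neither passed the test (edgeR adjusted p = 0.207 and 0.231). ORC4 and ORC5 had log2 fold changes of -0.03 each. CDC6, the ATPase that joins ORC to load the helicase, was the scarcest transcript of the 46 per length, with 11.5 and 10.9 FPKM in IAA and 12.2 and 12.7 FPKM in DMSO. Its log2 fold change was -0.06 (SE 0.0758, edgeR adjusted p = 0.531), and in CPM its IAA and DMSO libraries overlapped. Within a library CDC6 had 0.326 and 0.308 times the mean FPKM of the 6 ORC genes in IAA, against 0.293 and 0.311 times in DMSO.

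The MCM2-7 genes, whose products form the 6-membered ring of the helicase, gave no fall with TMM scaling: 0 of 6 were lower (0 also at an unadjusted p under 0.05 and with DESeq2, but 1, MCM6, with library size scaling) and 2 were higher. The share that was higher (33.3%) lay near the 28.7% of all tested genes, and the 0 lower stood against 29.6%. MCM5 had 128 and 117 CPM in IAA, against 109.9 and 109 CPM in DMSO, a log2 fold change of 0.16 (SE 0.0531, edgeR adjusted p = 0.0274). MCM3 had 167 and 168 CPM in IAA, against 155 and 152 CPM in DMSO, a log2 fold change of 0.13 (SE 0.0427, edgeR adjusted p = 0.0322). Both IAA libraries exceeded both DMSO libraries for these genes, yet the rises are 1.12-fold and 1.09-fold and the calls are not firm. With library size scaling MCM5 and MCM3 had log2 fold changes of 0.06 and 0.02 and neither was called. Both calls were also lost without DMSO replicate 1 and without DMSO replicate 2 (edgeR adjusted p between 0.0955 and 0.245), and that for MCM5 without IAA replicate 1 (edgeR adjusted p = 0.11). MCM4 had 168 and 169 CPM in IAA and 162 and 161 CPM in DMSO, and MCM6 had 119 and 111 CPM in IAA and 119 and 119.5 CPM in DMSO. MCM2 and MCM7 overlapped between the groups. The mean FPKM of the 6 MCM genes was 1.42 and 1.37 times that of the 6 ORC genes in IAA libraries, against 1.24 and 1.23 times in DMSO libraries, and the 2 groups of libraries did not overlap. In the list of 13 licensing genes, 2 were lower and 2 higher (15.4% each), below the 29.6% and 28.7% of all tested genes.

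**Figure D2:**
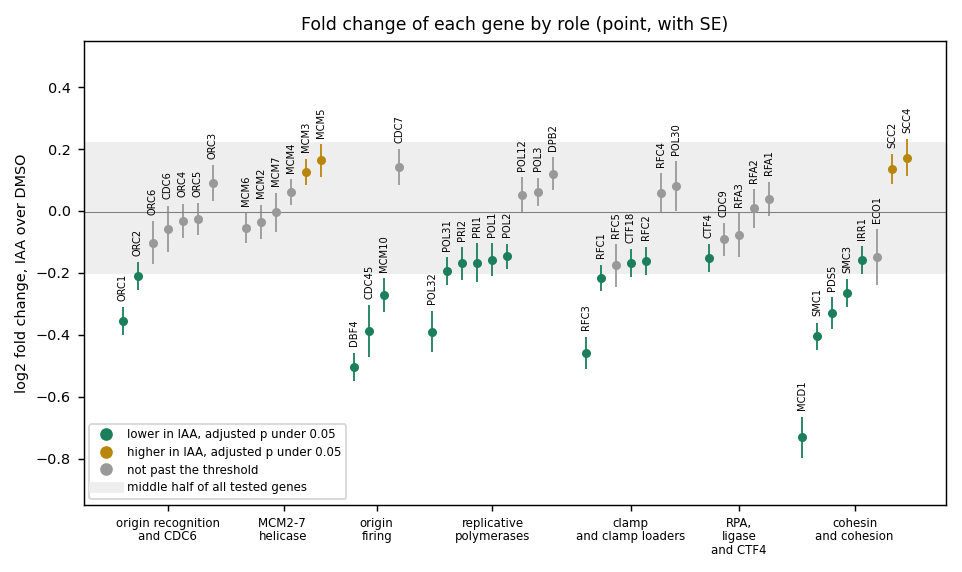
Points are log2 fold changes of IAA over DMSO with their standard errors, sorted within each role and coloured by the call, and the grey band holds the middle part of all tested genes from the lower to the upper quartile. The MCM genes lie between -0.05 and 0.16, and cohesin spans the widest range, -0.73 for MCD1 to 0.17 for SCC4.

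Among the genes that turn origins on, DBF4, CDC45 and MCM10 fell, and the catalytic kinase subunit CDC7 did not pass the test. DBF4, the regulatory subunit that makes Cdc7 active (chromosome IV, 558511 to 560625), had 115 and 110.4 CPM in IAA, against 159 and 161 CPM in DMSO. It was 1.42-fold lower, at -0.50 on the log2 scale (SE 0.0455, edgeR adjusted p = 6.82e-05). CDC45, part of the active helicase (chromosome XII, 343989 to 345941), had 38.3 and 32.0 CPM in IAA, against 46.4 and 45.6 CPM in DMSO, or 1.31-fold lower (edgeR adjusted p = 0.0044). MCM10, which is needed to start unwinding, had 40.6 and 42.1 CPM in IAA, against 49.9 and 50.04 CPM in DMSO, or 1.21-fold lower (edgeR adjusted p = 0.00311). All 3 kept the IAA libraries below the DMSO libraries, as did 41.3% of all tested genes. CDC7 had 43.4 and 42.9 CPM in IAA, against 38.1 and 40.0 CPM in DMSO, at 0.14 on the log2 scale (SE 0.0575, edgeR adjusted p = 0.0608). Per length, DBF4 transcript was 1.83 and 1.77 times that of CDC7 in IAA libraries, against 2.88 and 2.76 times in DMSO libraries. The ratios of the groups do not overlap, but 2 against 2 libraries cannot reach an exact two-sided permutation p below 0.333, so no test is given for this or for the other ratios. The count of 3 of 4 stands against 29.6% of all tested genes, in a list too small to say more.

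Of the 9 polymerase genes 6 were lower (66.7%) and 0 higher (0 also at an unadjusted p under 0.05 in edgeR and among DESeq2's calls), against 29.6% and 28.7% of all tested genes. Most of these falls were small. POL32, a subunit of polymerase delta that binds PCNA (chromosome X, 516461 to 517513), had 45.6 and 40.8 CPM in IAA, against 57.8 and 55.3 CPM in DMSO. It was 1.31-fold lower, at -0.39 on the log2 scale (SE 0.0674, edgeR adjusted p = 0.00145). POL31, the other small subunit of polymerase delta, had 81.7 and 82.6 CPM in IAA, against 94.9 and 92.9 CPM in DMSO, or 1.14-fold lower (edgeR adjusted p = 0.00601). The catalytic subunit gene POL3 did not pass the test, with 113 and 112 CPM in IAA and 106 and 110.0 CPM in DMSO (edgeR adjusted p = 0.261). Per length, POL32 transcript was 1.496 and 1.35 times that of POL3 in IAA libraries, against 2.01 and 1.86 times in DMSO libraries. Per kb of coding length, a scale added after seeing the data, POL32 stood at 1.26 and 1.14 times POL3 in IAA libraries, against 1.71 and 1.57 times in DMSO libraries, so the level of the ratio depends on the length used.

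In polymerase epsilon the catalytic subunit gene fell and DPB2 did not pass the test. POL2, its catalytic subunit and the longest coding sequence of the 46 (6669 bases), had 322 and 311 CPM in IAA, against 352 and 349 CPM in DMSO, or 1.11-fold lower (edgeR adjusted p = 0.0151). DPB2, its essential second subunit, had 68.8 and 65.7 CPM in IAA and 63.5 and 60.1 CPM in DMSO (log2 fold change 0.12, edgeR adjusted p = 0.0833). For polymerase alpha-primase, PRI2, the large primase subunit, had 82.2 and 78.2 CPM in IAA, against 93.1 and 87.4 CPM in DMSO (1.12-fold lower, edgeR adjusted p = 0.0219). POL1, the catalytic subunit of polymerase alpha, and PRI1, the catalytic primase, were also 1.12-fold lower (edgeR adjusted p = 0.0318 and 0.0476), and POL12, their regulatory subunit, had a log2 fold change of 0.05. These small calls did not hold with every library left out. Without DMSO replicate 1 the calls for POL1, PRI1, PRI2, POL2 and POL31 were lost, and without DMSO replicate 2 those for POL1, PRI1 and POL2 (edgeR adjusted p between 0.0548 and 0.195). Without IAA replicate 1 the call for PRI1 was lost (edgeR adjusted p = 0.177), and without IAA replicate 2 those for POL1 and PRI2 (edgeR adjusted p between 0.0773 and 0.125), while DPB2 was then called higher (edgeR adjusted p = 0.0389).

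At the clamp, 4 of 6 loader genes fell and the clamp itself did not pass the test. POL30, which encodes PCNA (chromosome II, 424990 to 425766), had 79.5 and 66.3 CPM in IAA and 68.0 and 69.9 CPM in DMSO (log2 fold change 0.08, edgeR adjusted p = 0.411). The IAA libraries lay on both sides of the DMSO libraries, and without IAA replicate 2 the gene was called higher (log2 fold change 0.21, edgeR adjusted p = 0.00687). RFC3, a small ATPase subunit of the loader (chromosome XIV, 86218 to 87240), had 75.8 and 70.4 CPM in IAA, against 102 and 98.9 CPM in DMSO. It was 1.37-fold lower, at -0.46 on the log2 scale (SE 0.0522, edgeR adjusted p = 0.000189). RFC1, the large subunit that defines the PCNA loader, had 153 and 157 CPM in IAA, against 181 and 179 CPM in DMSO, or 1.16-fold lower (edgeR adjusted p = 0.00289). CTF18, which replaces Rfc1 in the loader used for cohesion, had 72.7 and 70.6 CPM in IAA, against 80.7 and 80.3 CPM in DMSO, or 1.12-fold lower (edgeR adjusted p = 0.0126). RFC2 had 80.3 and 78.5 CPM in IAA, against 87.3 and 90.2 CPM in DMSO, or 1.12-fold lower (edgeR adjusted p = 0.0162). The remaining subunit genes did not pass, with log2 fold changes of -0.18 for RFC5 and 0.06 for RFC4. In all, 4 of 7 genes were lower (57.1%, and 5 at an unadjusted p under 0.05) and 0 higher (0 also at an unadjusted p under 0.05), against 29.6% and 28.7% of all tested genes. The CTF18 call was lost without DMSO replicate 1 (edgeR adjusted p = 0.079), those for CTF18 and RFC2 were lost without DMSO replicate 2 (edgeR adjusted p between 0.0727 and 0.147), and RFC5 was called without IAA replicate 1 (edgeR adjusted p = 0.00358). The balance of the 2 loader types moved little: CTF18 had 0.560 and 0.532 times the FPKM of RFC1 in IAA libraries and 0.526 and 0.530 times in DMSO libraries. PCNA transcript was 2.00 and 1.76 times the mean of the 5 RFC genes per length in IAA libraries, against 1.47 and 1.53 times in DMSO libraries, and per kb of coding length 1.76 and 1.54 times in IAA libraries, against 1.3002 and 1.36 times in DMSO libraries.

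The genes of RPA and of the DNA ligase showed no call with TMM scaling, while RFA3 and CDC9 were called lower with library size scaling. RFA1, RFA2 and RFA3, the subunits of the single-strand binding protein, had log2 fold changes of 0.04 (SE 0.0551), 0.01 (SE 0.0624) and -0.08 (SE 0.0699), and their IAA and DMSO libraries overlapped in CPM. In FPKM, which sets IAA lower against DMSO, the libraries did not overlap for RFA3. RFA1 had 98.2 and 89.3 CPM in IAA and 91.6 and 90.9 CPM in DMSO. RFA3 had 35.5 and 32.4 CPM in IAA and 37.1 and 34.6 CPM in DMSO, and it had the highest FPKM of the 46, at 230.1 and 219.6 in IAA and 249 and 237 in DMSO. It is also the gene that FPKM raises most: per kb of coding length RFA3 had 96.3 and 87.8 CPM in IAA and 100.6 and 93.7 CPM in DMSO, close to POL30, with 102 and 85.3 CPM in IAA and 87.5 and 89.9 CPM in DMSO. CDC9, the ligase that seals Okazaki fragments, had 111 and 102 CPM in IAA and 115 and 112 CPM in DMSO (edgeR adjusted p = 0.171). It was called lower without IAA replicate 1 (edgeR adjusted p = 0.0199). CTF4, which links the helicase to polymerase alpha, was the exception: it had 83.4 and 81.5 CPM in IAA, against 91.9 and 91.3 CPM in DMSO, or 1.11-fold lower (edgeR adjusted p = 0.0179). That call was lost without DMSO replicate 1, without DMSO replicate 2 and without IAA replicate 2 (edgeR adjusted p of 0.113, 0.0922 and 0.0544). RFA1, RFA2, CDC9 and CTF4 all have ACGCGT upstream, and of these only CTF4 was called with TMM scaling.

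Over the polymerase, clamp, RPA, ligase and CTF4 lists together, 11 of 21 genes were lower (52.4%) and 0 higher (0 also at an unadjusted p under 0.05 and with DESeq2), against 29.6% and 28.7% of all tested genes. The count was 4 without DMSO replicate 1, 5 without DMSO replicate 2 and 6 with DESeq2, and 2 of the 21 fell at least 1.2-fold (POL32 and RFC3).

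Cohesin showed the widest spread, with the ring genes down and the loader genes slightly up. MCD1, the kleisin that closes the ring and is cut at anaphase (chromosome IV, 444683 to 446383), had 49.5 and 43.8 CPM in IAA, against 79.7 and 75.2 CPM in DMSO. It was 1.66-fold lower, the largest fall among the 46, at -0.73 on the log2 scale (SE 0.0675, edgeR adjusted p = 7.41e-05). SMC1 (chromosome VI, 119429 to 123106) had 155 and 148 CPM in IAA, against 200.1 and 200.4 CPM in DMSO, or 1.32-fold lower (edgeR adjusted p = 0.000168). SMC3, its partner ATPase in the ring, had 94.8 and 94.6 CPM in IAA, against 111 and 116 CPM in DMSO, or 1.202-fold lower (edgeR adjusted p = 0.00144). PDS5, a regulator bound to the ring, had 126 and 116 CPM in IAA, against 152 CPM in both DMSO libraries, or 1.26-fold lower (edgeR adjusted p = 0.000762). For these 4 genes neither IAA library reached the level of a DMSO library, which held for 41.3% of all tested genes. Each of the 4 was called under every alternative run. IRR1, which binds Mcd1, had 134 and 130.1 CPM in IAA, against 149 and 146 CPM in DMSO, or 1.12-fold lower (edgeR adjusted p = 0.0155).

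The loader genes went the other way by a small amount. SCC2 had 80.4 and 84.4 CPM in IAA, against 75.5 and 74.4 CPM in DMSO, at 0.14 on the log2 scale (SE 0.048, edgeR adjusted p = 0.0379). SCC4 had 45.2 and 45.1 CPM in IAA, against 38.7 and 41.4 CPM in DMSO, at 0.17 on the log2 scale (SE 0.0594, edgeR adjusted p = 0.0346). With library size scaling the log2 fold changes of SCC2 and SCC4 were 0.03 and 0.07 and neither was called, and DESeq2 called neither. The calls for IRR1, SCC2 and SCC4 were lost without DMSO replicate 1 (edgeR adjusted p between 0.132 and 0.257), those for IRR1 and SCC2 without DMSO replicate 2 (edgeR adjusted p between 0.0634 and 0.201), that for SCC4 without IAA replicate 1 (edgeR adjusted p = 0.0559) and that for SCC2 without IAA replicate 2 (edgeR adjusted p = 0.114). ECO1, the acetyltransferase that locks cohesion, had the lowest CPM of the 46, with 9.24 and 9.70 CPM in IAA and 10.7 and 10.3 CPM in DMSO (edgeR adjusted p = 0.183). In the list of 8, 5 genes were lower (62.5%) and 2 higher (25%), against 29.6% and 28.7% of all tested genes, so the share that was higher lay near that of all genes.

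**Figure D3:**
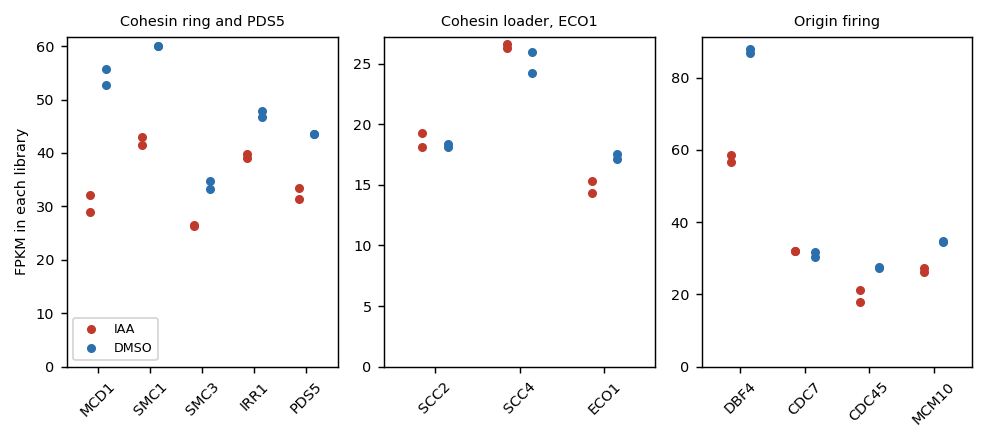
FPKM of cohesin and origin firing genes in each library, with IAA (red) left of DMSO (blue) for each gene and each axis starting at 0. MCD1 lies at 32.2 and 28.9 FPKM in IAA, against 55.7 and 52.6 FPKM in DMSO, SMC1 at 43.0 and 41.5 FPKM in IAA, against 60.0 FPKM in both DMSO libraries, and DBF4 at 58.6 and 56.8 FPKM in IAA, against 87.0 and 87.8 FPKM in DMSO.

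With unequal falls, the transcripts of the ring stood in other proportions in IAA than in DMSO. MCD1 had 32.2 and 28.9 FPKM in IAA, against 55.7 and 52.6 FPKM in DMSO. Relative to the mean of SMC1, SMC3 and IRR1 it stood at 0.885 and 0.808 in IAA libraries, against 1.18 and 1.12 in DMSO libraries. The ratio does not depend on how libraries are scaled. Per kb of coding length it was 0.819 and 0.747 in IAA libraries, against 1.0999 and 1.04 in DMSO libraries. SCC4 relative to SCC2 overlapped between the groups, at 1.45 and 1.38 in IAA libraries and 1.32 and 1.43 in DMSO libraries. PRI1 relative to PRI2 also overlapped, at 0.715 and 0.823 in IAA libraries and 0.755 and 0.776 in DMSO libraries.

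**Figure D4:**
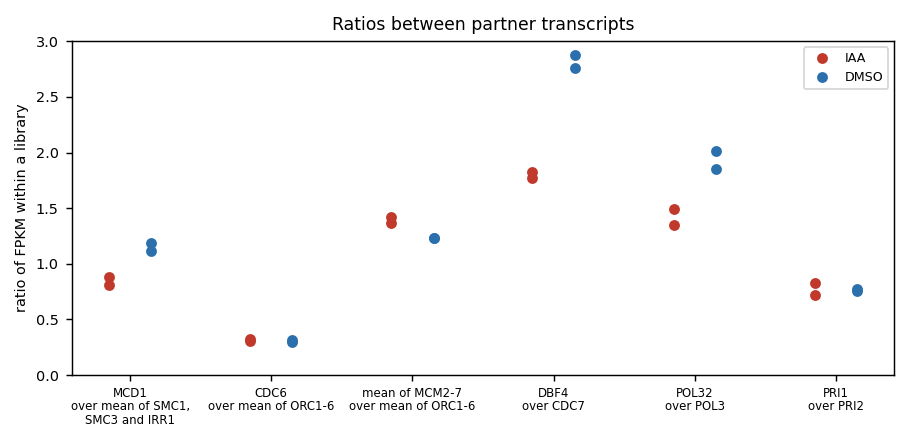
Each point is the ratio of FPKM values in 1 library, with IAA (red) left of DMSO (blue), for 6 pairs of partner genes or complexes. MCD1 over the other ring genes, DBF4 over CDC7 and POL32 over POL3 are lower in both IAA libraries, the MCM to ORC ratio is higher, and CDC6 to ORC and PRI1 to PRI2 overlap.

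When the 46 genes were split by their upstream sequence, those with ACGCGT had 12 lower, 0 higher (0 also at an unadjusted p under 0.05 in edgeR and with DESeq2) and 10 not called, with a median log2 fold change of -0.15. Those without it had 9 lower, 4 higher and 11 not called, with a median of -0.07. Among genes outside the 46, 58 of 149 tested genes with ACGCGT were lower (38.9%) and 31 higher, with a median of -0.10, against 1621 of 5519 lower (29.4%) and 1586 higher, with a median of -0.0025, without it. The split by CGCGAAA ran the other way. The 7 genes with it had 1 lower, 2 higher and 4 not called, with a median of 0.08, against 20 lower, 2 higher and 17 not called among the 39 without it, with a median of -0.15. Among genes outside the 46, 76 of 190 tested genes with CGCGAAA were lower (40.0%) and 30 higher, with a median of -0.08, against 1603 of 5478 lower (29.3%) and 1587 higher, with a median of -0.0025, without it. MCD1, the gene that fell most, has no ACGCGT in 250 bases but has 2 matches in a window of 500 bases, at -372 and -292 from its coding start. The wider window was chosen after seeing the data. With it, 25 of the 46 genes (54.3%) and 5.42% of all genes hold the motif. Of the 25, 13 were lower (52%) and 1 higher, and of the 21 without it 8 were lower (38.1%) and 3 higher. Among genes outside the 46 in this window, 36.1% of tested genes with the motif were lower, against 29.3% without it.

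**Figure D5:**
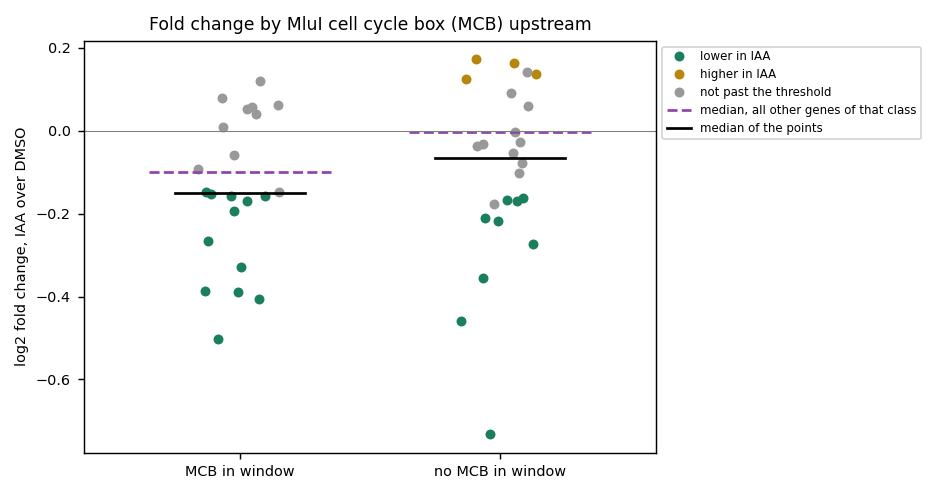
Each point is 1 of the 46 genes, placed by its log2 fold change of IAA over DMSO and by whether ACGCGT (MCB) lies in the 250 bases before its coding start, with black lines at the medians (-0.15 with and -0.07 without) and dashed lines at the medians of all other genes of that class. The 4 genes called higher are all without the motif, and both classes hold genes that fell and genes that did not pass.

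Of a further 29 genes of the same pathways, 16 were lower (55.2%) and 2 higher, against 29.6% and 28.7% of all tested genes, with a median log2 fold change of -0.18, and 10 were lower with DESeq2. The 6 with the lowest p-values all fell. MRC1, the fork protein that carries the checkpoint signal, had 107 and 103 CPM in IAA, against 145 and 147 CPM in DMSO, or 1.39-fold lower (edgeR adjusted p = 8.21e-05). TOP2, the topoisomerase that untangles sister chromatids, had 305 and 289 CPM in IAA, against 403 and 421 CPM in DMSO, or 1.39-fold lower, and TOP1, which relaxes supercoils, was 1.26-fold lower. DPB4, a small subunit of polymerase epsilon, had 19.3 and 17.2 CPM in IAA, against 29.1 and 28.8 CPM in DMSO, or 1.59-fold lower (edgeR adjusted p = 0.000161). ESP1, the separase that cuts Mcd1, and SGO1, the shugoshin that guards centromeric cohesion, were each 1.32-fold lower. The 2 genes called higher, named after their values were seen, were TAH11 and RAD24. TAH11, which encodes Cdt1, the partner that brings Mcm2-7 to origins, had 92.4 and 92.3 CPM in IAA, against 75.5 and 76.3 CPM in DMSO, or 1.22-fold higher (edgeR adjusted p = 0.000885). RAD24, which replaces Rfc1 in the checkpoint clamp loader, was 1.13-fold higher, a call lost without DMSO replicate 1 and without DMSO replicate 2 (edgeR adjusted p of 0.0689 and 0.158).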

How the data were processed

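RNA was sequenced from 4 libraries, 2 from IAA and 2 from DMSO cultures, grouped by their titles. Per the labels' protocols, libraries were directional and made from column-purified total RNA. The authors deposited estimated counts per gene (RSEM expected counts, which need not be whole) and, separately, FPKM values. Build R64, RSEM 1.3.3 and STAR 2.7.10a are named in the submitters' processing notes. The sources used here do not give the use of strand in counting. No annotated gene overlaps any of the 46, and none has a fractional count, which would mark shared reads.

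Estimated counts were rounded, filtered with filterByExpr (5799 of 6459 rows left) and scaled by TMM, and IAA was compared with DMSO by glmQLFit and glmQLFTest (R 4.3.3, edgeR 4.0.16) with Benjamini-Hochberg adjustment over all tested genes. The standard error is the size of the log2 fold change divided by the root of F. Names, positions and upstream windows came from RefSeq's R64, the build of the files, and all 46 names matched. Of these, 45 genes have 1 coding exon and RFA2 has 2. Alternatives were other scalings and filters, DESeq2 1.42.0, limma-voom (limma 3.58.1), a replicate block, limma fits of log2(FPKM + 1) and of log2(FPKM + 0.1), stricter thresholds, removal of trends with coding length and level, and each library left out, where the remaining library of that treatment is assumed to vary as the other treatment does. The 4 genes with the lowest p-values in each role are given by library, and other pathway genes by the 6 lowest p-values. Genes named for other reasons were chosen with their values in view. The members and lists were chosen with earlier results of these data known. The design text calls the samples biological replicates. The spread between replicate libraries exceeded sampling noise: chi-square over its degrees of freedom was 19.0 in IAA and 6.20 in DMSO.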

Additional observations from a re-analysis of the deposited data

How the results depend on the processing

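Of 736 pairs of a gene and an alternative setting, 599 kept direction and side of the threshold, 79 lost the call, 21 gained one and 37 changed sign, in each of these 37 for a gene not called either way. The cause of these changes was not tested beyond what each setting does by construction. Calls lost came mostly with stricter thresholds and with a DMSO library left out.

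The count of genes called over the whole table was 3380, and 2176 with a fold of at least 1.2; it ran from 2577 to 3406 with a library left out. Genes of the 46 called lower numbered 21, against 13 at an adjusted p of 0.01, 10 with at least 1.2-fold, and 13 to 22 with a library left out. Those called higher numbered 4, against 0 with library size scaling, 0 on log2(FPKM + 1), 0 on log2(FPKM + 0.1), 0 at an adjusted p of 0.01, 0 with at least 1.2-fold, 1 with DESeq2 and 0 to 5 with a library left out; at an unadjusted level these genes had p-values between 0.0144 and 0.0211. Licensing genes called lower numbered 2, against 4 with library size scaling, 1 with at least 1.2-fold and 2 in each fit with a library left out. Polymerase and fork genes numbered 11, against 6 with DESeq2, 4 at an adjusted p of 0.01, 2 with at least 1.2-fold and 4 to 12 with a library left out. The other pathway genes numbered 16, against 10 with DESeq2, 10 at an adjusted p of 0.01 and 11 to 15 with a library left out. Cohesin genes (5; 4 to 5 with a library left out) and firing genes (3 in every such fit) stayed within 1.5 times.

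The median log2 fold change of the 46 was -0.12 (SD over library pairs 0.0411), -0.23 with library size scaling, -0.20 on log2(FPKM + 1), -0.21 on log2(FPKM + 0.1), -0.12 once trends with coding length and level were removed, and -0.15 to -0.069 with a library left out. Less the median of all genes under the same setting, it was -0.12 with TMM, with library size scaling and on both FPKM scales.

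Sign changes of uncalled genes were as follows. With library size scaling the log2 fold changes were ORC3 -0.014, MCM4 -0.043, POL12 -0.053, POL3 -0.042, POL30 -0.025, RFC4 -0.048, RFA1 -0.065 and RFA2 -0.096. On log2(FPKM + 1) they were ORC3 -0.0044, MCM4 -0.037, POL12 -0.043, POL3 -0.0355, POL30 -0.0027, RFC4 -0.028, RFA1 -0.057 and RFA2 -0.072. On log2(FPKM + 0.1) they were ORC3 -0.0046, MCM4 -0.038, POL12 -0.0445, POL3 -0.036, POL30 -0.0028, RFC4 -0.029, RFA1 -0.0575 and RFA2 -0.073. MCM7 had 9.3e-05 with RLE scaling, 4.8e-05 with DESeq2 and 0.016 with a minimum mean of 10 CPM. With a library left out, values spanned -0.074 to 0.0096 for ORC4, -0.098 to 0.031 for MCM2, -0.10 to 0.0020 for MCM6, -0.089 to 0.082 for MCM7, -0.058 to 0.21 for POL30, -0.0032 to 0.12 for RFC4, -0.032 to 0.11 for RFA1 and -0.076 to 0.095 for RFA2.

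With the replicate block, 22 of the 46 were lower and 6 higher, with CDC7, DPB2 and RFC5 gained and 0 calls lost, and 3708 genes were called in all. Same-numbered samples share only a number in the labels, and their deviations correlated at r = 0.239 over genes. HIS3, given below, also differed by replicate number. Whether same-numbered cultures were paired was not tested, and the main test does not use the number. Of 14 other genes run under the alternatives, 13 kept their call under every alternative, and RAD24 lost it under 8. CDC20, HTB2 and HHF2 were not among the 14.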

Other observations

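HIS3, the marker named in the genotype beside the OsTIR1 receptor, split the libraries by replicate number rather than by treatment. It had 989 and 444 CPM in IAA replicates 1 and 2, against 777 and 362 CPM in DMSO replicates 1 and 2. The log2 fold change was 0.33 (SE 0.387, edgeR adjusted p = 0.487). LEU2, URA3 and MET17 were at 0 counts in the same libraries.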
